A study of Mus musculus with 24 samples.

Results

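The hippocampus of naive mice, taken without any conditioning, was compared between mice labelled Tob-KO and mice labelled WT. The comparison used 6 of the 24 RNA-seq libraries of the series, 3 of each genotype, and each library was 1 male C57BL/6J mouse of 8 to 12 weeks. The other 18 libraries came from the same genotypes after contextual fear conditioning (15 min, 1 h or 3 h later), in which a mouse learns to link a place with a foot shock. The naive libraries give the genotype difference before that stimulus. Tob-KO mice carry a constitutive disruption of Tob1 in all tissues, so the difference is not limited to the hippocampus or to adult life. Which part of the gene is removed, and how often the Tob-KO line was backcrossed, is not given in the sources used here. The animals were not treated, and the labels name no agent or other allele that separated the groups.

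TOB, the protein made from Tob1, belongs to a family of antiproliferative proteins that bind the CCR4-NOT deadenylase, an enzyme complex that shortens the poly(A) tails of messenger RNAs. TOB can also bind SMAD proteins, which carry bone morphogenetic protein signals to the nucleus. Activity-regulated genes are transcribed within minutes of calcium entry and ERK kinase signalling in a neuron. The first of them encode transcription factors such as FOS, EGR1, NPAS4 and NR4A1, while others encode effectors that act at the synapse, such as ARC.

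The naive libraries held 30016559 to 35233118 counts, and 18364 genes reached 0.2 CPM in at least 2 of the 6 libraries and were tested. CPM, the unit of all levels below, is the count scaled to a common library size. Neuronal markers of the hippocampus were present in every library, with a level summed over 15 genes of 3463 to 3668 CPM in WT and of 3387 to 3689 CPM under the label Tob-KO. The general neuronal gene Snap25, at 1759 to 1996 CPM, was the largest part of each sum. Averaged per gene, log2 (CPM + 0.1) of the list stood at -0.25, 0.07 and -0.06 from the mean of the 6 libraries in WT. In Tob-KO it stood at 0.15, 0.16 and -0.08. Markers of another tissue varied widely within both genotypes. The summed level of 18 choroid plexus markers, led by the thyroid hormone carrier gene Ttr, was 3978, 1263 and 215 CPM in WT replicates 1 to 3 and 293, 7498 and 3833 CPM in Tob-KO replicates 1 to 3.

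Tob1 itself (ENSMUSG00000037573.5, chromosome 11 of GRCm38, 94211454 to 94215495, forward strand) was not lost from the libraries labelled Tob-KO. Its level was 43.0, 37.6 and 33.9 CPM in WT against 52.1, 55.4 and 52.7 CPM in Tob-KO, so every library labelled Tob-KO lay above every WT library. The means were 38.2 ± 4.57 and 53.4 ± 1.72 CPM (SD, n = 3 each), a log2 fold change of 0.49 ± 0.09 (SE) with an FDR of 0.0231 by edgeR's exact test. Gene counts add up all exons, so reads from a part of the gene that remains cannot be told apart from reads of an intact gene, and the counts do not check the deletion. The direction goes against the label, and below "Tob-KO" means the libraries labelled so. The call rested on several libraries, with an FDR of 0.324 without WT replicate 2, 0.384 without WT replicate 3 and 0.249 without Tob-KO replicate 2.

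Of the other family members, Tob2 was at 31.5, 37.8 and 32.8 CPM in WT against 34.7, 39.3 and 34.8 CPM in Tob-KO, a log2 difference of 0.10 ± 0.09. Btg1, Btg2 and Btg3 differed by 0.03 ± 0.07, -0.20 ± 0.15 and -0.11 ± 0.11 on the log2 scale, with overlapping groups. Btg4 had no count in any naive library and was not tested.

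In all, 7 of the 18364 genes passed an FDR of 0.05 at any fold (0.0381%), and 4 of these also passed the 2-fold limit of the study (0.0218%). Of these, 4 genes were lower in Tob-KO, namely the antisense RNA gene A830036E02Rik, the corneal keratin gene Krt12, the synaptic gene Arc and the nuclear receptor gene Nr4a1. The other 3 were higher, namely the antisense RNA gene Gm11940, the gene Hectd2 of a ubiquitin ligase family, and Tob1. The groups did not overlap for any of the 7, where 6.33% of all genes had every Tob-KO library below every WT library and 5.17% had every one above. Arc, Nr4a1 and Tob1 were the 3 calls below 2-fold. edgeR's quasi-likelihood test, which gives more weight to the spread of each gene, called 1 of the 7, A830036E02Rik, with an adjusted p of 0.000335. The p-values measure the spread between these 6 mice.

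**Figure D1:**
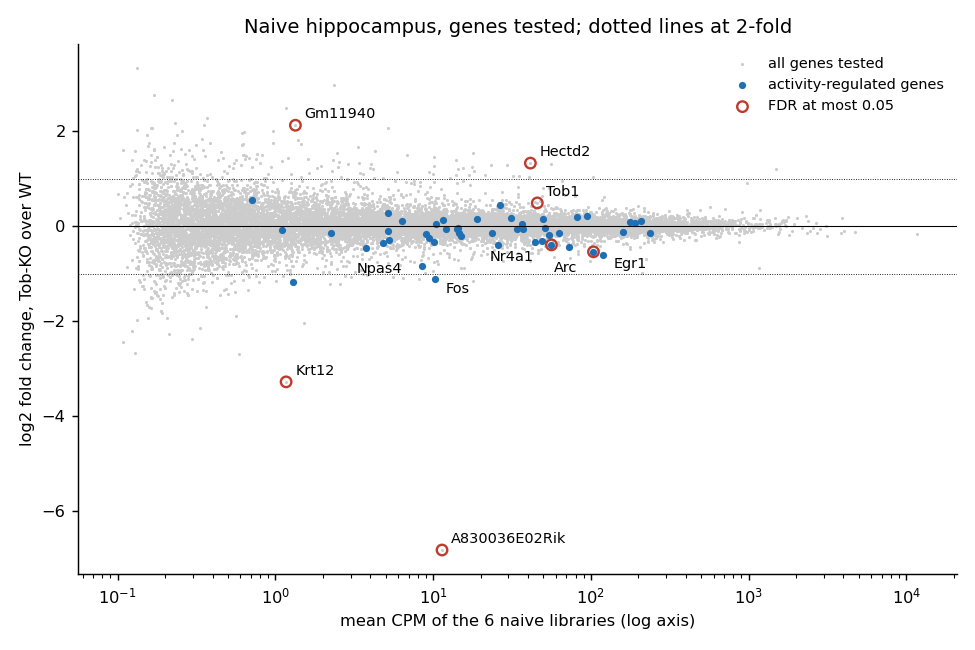
Log2 fold change of Tob-KO over WT against the mean CPM of the 6 naive libraries (log axis) for the 18364 genes tested, with the activity-regulated genes in blue and the 7 genes at an FDR of at most 0.05 circled in red. The grey cloud narrows around 0 towards high counts, and most blue points lie below the zero line while only Fos and Egr2 reach the dotted line of a 2-fold decrease.

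Most genes with a small unadjusted p differed by less than 2-fold. At an unadjusted p of at most 0.05 stood 742 genes (4.04%), of which 338 were lower (1.84% of all tested) and 404 higher (2.20%) in Tob-KO. Of the 742, 608 differed by less than 2-fold and 456 by less than 1.5-fold. The share of 4.04% was no larger than the limit itself, and over all genes the median log2 fold change was 0.006. Counts of genes in the lists below are read against these 2 percentages.

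Arc, whose protein organises the removal of AMPA receptors from synapses, had the lowest FDR in the exact test among the activity-regulated genes. It stood at 117, 133 and 120 CPM in the WT libraries. In Tob-KO it stood at 91.4, 80.3 and 81.8 CPM. Every Tob-KO library was below every WT library, with at least 2555 counts behind each value. The means of 123 ± 8.93 and 84.5 ± 6.05 CPM (SD, n = 3 each) gave a log2 fold change of -0.54 ± 0.07 (SE), a decrease of 31.3%, with an FDR of 2.1e-05. Leaving out any single library kept the FDR between 1.43e-05 and 0.00314. DESeq2 gave an adjusted p of 2.61e-06, the quasi-likelihood test 0.346, and the exact test with the spread estimated over all 24 libraries 0.625.

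Nr4a1, an orphan nuclear receptor induced early in active neurons, showed the narrowest spread of the 7. WT libraries lay at 63.9, 65.0 and 63.2 CPM and Tob-KO libraries at 49.7, 47.1 and 48.9 CPM. Both groups were tight and well apart. The log2 fold change was -0.40 ± 0.05 (SE), a decrease of 24%, with an FDR of 0.00103. The adjusted p was 6.93e-05 in DESeq2, 0.263 in the quasi-likelihood test and 0.754 with the spread of all 24 libraries, and the FDR was 0.0971 without WT replicate 2.

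**Figure D2:**
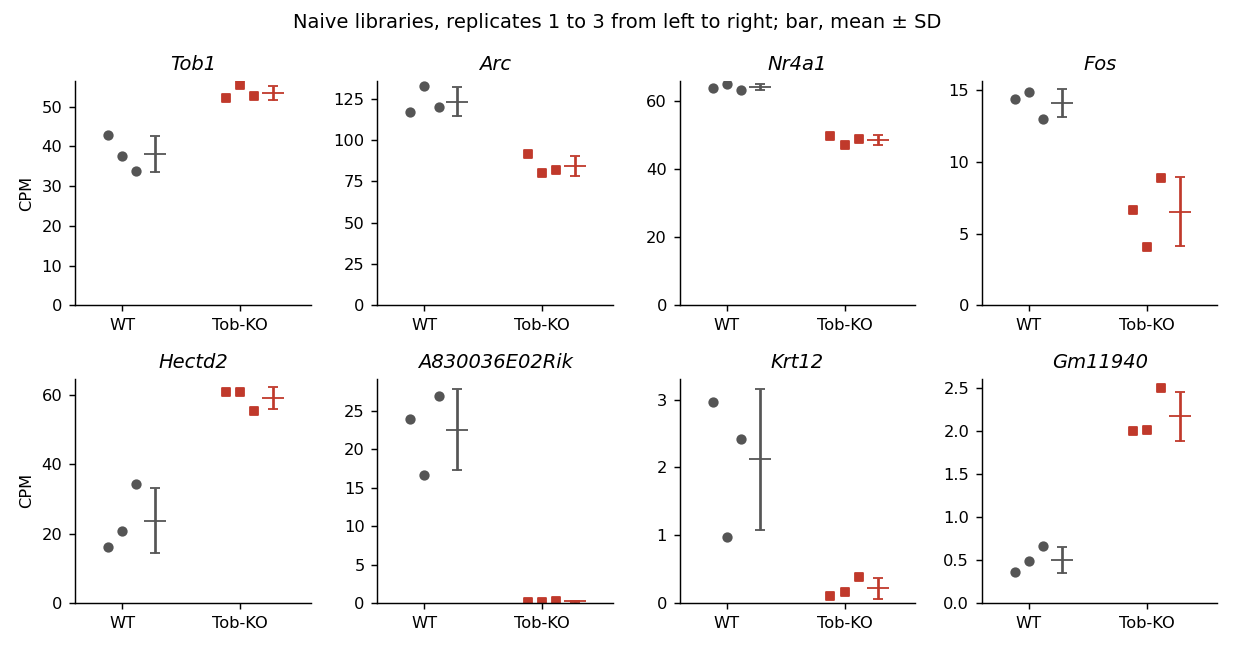
CPM in each naive library (points, replicates 1 to 3 from left to right, WT grey and Tob-KO red) with the mean ± SD beside them, for the 7 genes called and Fos. The axes start at 0, and in all 8 panels the 3 Tob-KO points lie on one side of the 3 WT points.

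Several transcription factors that respond first to activity were lower in Tob-KO at an unadjusted p of at most 0.05, while most did not pass that limit. Of 22 activity-regulated transcription factor genes, 21 were tested and Fosl1 was below the filter. Their median log2 fold change was -0.29 against 0.006 over all genes, and 16 of the 21 were negative. Nr4a1 alone passed the FDR, while 8 of 21 (38.1%, against 1.84% of all genes) were lower at an unadjusted p of at most 0.05 and 1, Jun, was higher. The list and the lower direction were chosen with earlier results of these data known, so the share is a description and not a test. All 3 Tob-KO libraries lay below all WT libraries for 7 of the 21 (against 6.33% of all genes). Averaged over the 22 genes, log2 (CPM + 0.1) stood at 0.24, 0.12 and 0.05 from the mean of the 6 libraries in WT and at -0.19, -0.23 and 0.01 in Tob-KO, so replicate 3 lay near WT. Genes outside the lists, such as Necab1 and Lgi2, were likewise lower in Tob-KO apart from replicate 3, which lay within the WT range. They are given in the last section, and whether the patterns share a cause was not tested.

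Fos, which pairs with JUN proteins to form AP-1, was the largest difference among members above 5 CPM. Its level was 14.4, 14.9 and 13.0 CPM in WT against 6.61, 4.08 and 8.86 CPM in Tob-KO. The Tob-KO libraries were all lower but spread over a 2-fold range that WT did not show. The log2 fold change was -1.11 ± 0.24 with an FDR of 0.0696. It passed in DESeq2 with an adjusted p of 0.00368, and in the exact test without Tob-KO replicate 2 (0.0457) or 3 (4.11e-05). It did not pass in the quasi-likelihood test (0.80), with the spread of all 24 libraries (0.128) or without WT replicate 1 (0.916).

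Npas4, a factor that shapes inhibitory input onto active neurons, was at 13.3, 10.1 and 9.40 CPM in WT against 6.29, 4.90 and 7.07 CPM in Tob-KO. Again the groups did not overlap. The log2 fold change was -0.84 ± 0.18 with an FDR of 0.132. It passed in DESeq2 (adjusted p = 0.0228) and in the exact test without Tob-KO replicate 3 (0.0283), and not in the quasi-likelihood test (0.80), with the spread of all 24 libraries (0.144), or without WT replicate 1 or Tob-KO replicate 2 (FDR 1 in both).

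Of the Egr family of zinc-finger factors, 3 members were lower at the unadjusted limit. Egr1 read 177, 130 and 127 CPM in WT against 94.3, 80.0 and 110 CPM in Tob-KO, a log2 fold change of -0.61 ± 0.15 with an FDR of 0.207 in the exact test, 0.0286 in DESeq2 and 0.80 in the quasi-likelihood test. The exact test gave Egr1 an FDR of 0.00651 without Tob-KO replicate 3 and of 1 without WT replicate 1, where the log2 fold change was -0.43, or without Tob-KO replicate 2. Egr2, near the filter at 2.46, 1.77 and 1.13 against 0.589, 0.628 and 1.15 CPM, had the largest log2 fold change of the list, -1.17 ± 0.37, and its groups overlapped. Egr3 differed by -0.19 ± 0.05, from 57.4, 58.1 and 58.9 CPM to 52.8, 48.9 and 50.7 CPM. Egr4 was at a log2 fold change of -0.14 ± 0.08 and overlapped between groups.

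Junb and Ier5, an AP-1 partner and an early response gene, complete the lower members. Junb was at 48.8, 52.4 and 47.5 CPM in WT against 41.6, 38.3 and 38.1 CPM in Tob-KO, a log2 fold change of -0.33 ± 0.06 with an FDR of 0.277. Ier5 was at 55.8, 57.3 and 50.0 against 47.7, 35.7 and 46.9 CPM, a log2 fold change of -0.32 ± 0.11. Jun went the other way, from 83.5, 86.6 and 93.7 CPM in WT to 97.8, 107 and 102 CPM in Tob-KO, a log2 difference of 0.22 ± 0.06 at an unadjusted exact p of 0.00749 and an FDR of 0.99. Its groups did not overlap, and its sign was opposite to that of Fos and Junb.

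Nr4a2 and Nr4a3, relatives of Nr4a1, did not pass the unadjusted limit. Nr4a2 stood at 81.0, 73.0 and 97.1 CPM in WT against 49.9, 39.4 and 96.3 CPM in Tob-KO, where replicate 3 sat with the WT libraries. Its log2 difference of -0.43 ± 0.30 was of the size of that of Nr4a1, with a wider spread. Nr4a3 was at a log2 difference of 0.20 ± 0.10, with overlapping groups. Fosb (-0.33 ± 0.20) and Ier2 (-0.29 ± 0.21) also overlapped between groups.

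Promoter sequence is shown for lower members that the RefSeq promoter table (GRCm38.p6) holds, because many early genes carry the cyclic AMP response element (CRE), a motif bound by CREB. The window was the 250 bases before the start, and the motif was searched on both strands as its 5-base core, TGACG or CGTCA, called the CRE core here. Of the 10 lower activity-regulated genes, 6 had a window, and 5 of these held a CRE core in at least 1 window, against 19.8% of the 26994 genes in the table (17.7% of its 32817 windows). CRE cores are in capitals below, and each run is written 5′ to 3′ on the strand of the gene.
Nr4a1, chr15:101266765-101266794, forward strand: ccgggccgtgtgCGTCAgtggcgcccccgc
Nr4a1, chr15:101266794-101266823, forward strand: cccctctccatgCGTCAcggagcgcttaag
Fos, chr12:85473812-85473841, forward strand: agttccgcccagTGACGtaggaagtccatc
Npas4, chr19:4990128-4990157, reverse strand: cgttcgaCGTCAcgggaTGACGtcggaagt
Egr2, chr10:67537746-67537775, forward strand: aaattggccatgTGACGgcaaaagctgcca
Junb, chr8:84978837-84978866, reverse strand: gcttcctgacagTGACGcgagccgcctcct
Dusp1, chr17:26508597-26508626, reverse strand: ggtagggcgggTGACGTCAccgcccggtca
The last bases of the CRE cores shown for Nr4a1 lie 65 and 36 bases before its start and that of Fos 62 bases before. Nr4a1 held 4 CRE cores in its window, Fos and Npas4 2 each and Junb 1, and Egr2 held 2 in 3 of its 5 windows and none in the other two. The run from Dusp1, an ERK phosphatase gene described below, holds the full palindrome TGACGTCA, in which 2 CRE cores overlap and which 1.55% of windows held. Ier5 held no CRE core. Dusp1 is in neither activity-regulated list and was added to the search. List members that were not lower were not searched, so the share does not set the lower genes apart from other early genes. These matches describe the letters in the windows and were not tested as binding sites.

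Activity-regulated effectors as a list lay nearer 0 than the transcription factors. All 26 were tested, with a median log2 fold change of -0.06, and 16 were negative. The groups did not overlap for 4 lower and 4 higher genes (against 6.33% and 5.17% of all genes). Beside Arc, which passed the FDR, 1 more gene was lower at the unadjusted limit and 1 was higher. The lower one was Cyr61, a matricellular protein gene, at 5.15, 4.06 and 3.79 CPM in WT against 2.88, 3.52 and 3.06 CPM in Tob-KO (log2 fold change -0.46 ± 0.17). The higher one was Ptgs2, which makes prostaglandins, at 23.3, 25.2 and 19.5 against 27.0, 37.5 and 27.8 CPM (0.45 ± 0.15).

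Neurotrophic and synaptic effectors lay near 0. Bdnf, the neurotrophin, was at 48.4, 50.0 and 42.5 CPM in WT against 56.3, 52.8 and 47.4 CPM in Tob-KO, a log2 difference of 0.15 ± 0.09. Homer1, a postsynaptic scaffold gene, was at -0.12 ± 0.09. Vgf and Plk2, the 2 effectors with the most reads, were at -0.14 ± 0.09 and 0.12 ± 0.05, a secreted peptide precursor and a kinase. The prohormone convertase gene Pcsk1 was at 30.1, 25.5 and 32.3 CPM in WT against 19.4, 16.6 and 31.0 CPM in Tob-KO, so that replicate 3 lay within WT, as it did for Nr4a2.

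**Figure D3:**
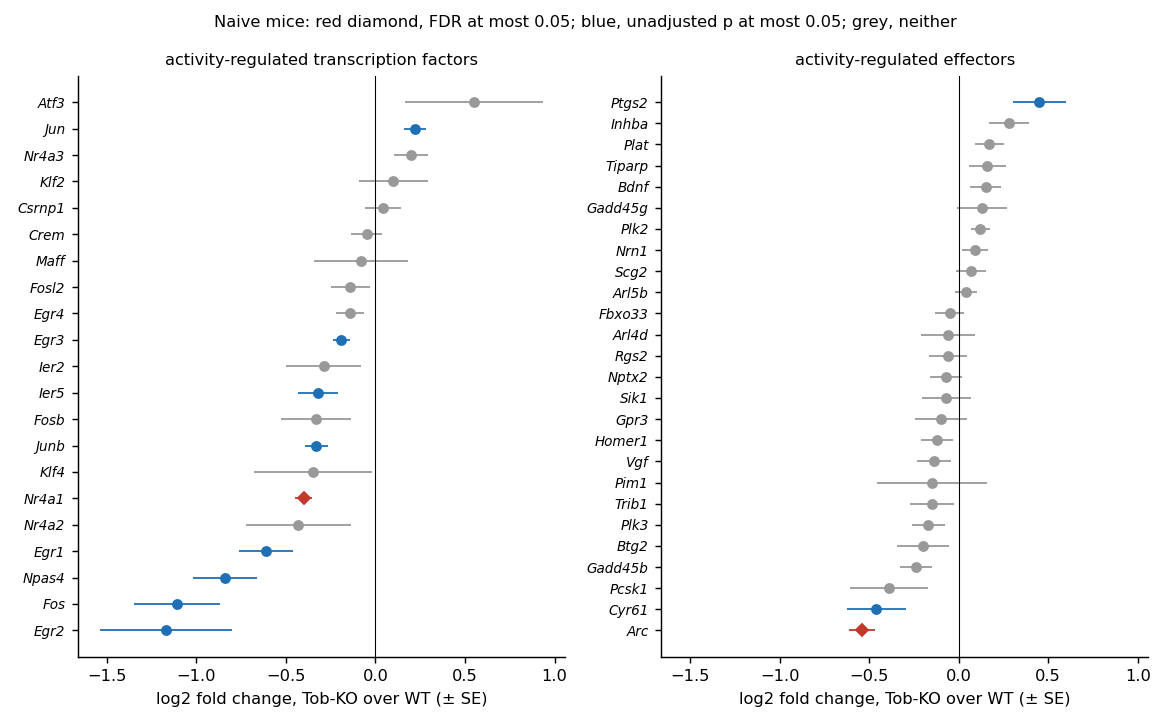
Log2 fold change of Tob-KO over WT (± SE) of the 21 activity-regulated transcription factors tested (left) and the 26 effectors (right) in naive mice. Red diamonds mark Nr4a1 and Arc, the members at an FDR of at most 0.05, blue points those at an unadjusted p of at most 0.05 and grey points the rest. The left list leans to negative values and the right list centres near 0.

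Both lists together held 10 genes that were lower at the unadjusted limit, with log2 fold changes from -0.19 to -1.17. Tob-KO replicate 2 was the lowest of its group for 7 of the 10, and it also had the highest choroid plexus sum. The part of choroid plexus tissue in these differences was not tested, and 2 refits are given as a description. With a choroid plexus score as a covariate 11 genes were lower in the quasi-likelihood test, where the 10 are from the exact test. Without the choroid-poor libraries, WT replicate 3 and Tob-KO replicate 1, 8 were lower in the exact test. That refit did not balance the tissue. The choroid plexus sums left were 3978 and 1263 CPM in WT against 7498 and 3833 CPM in Tob-KO. In the first refit neither Arc (-0.52) nor Nr4a1 (-0.39) was called, with adjusted p-values of 0.50 for both. Without the score the quasi-likelihood test did not call them either (adjusted p-values of 0.346 and 0.263). In the second Arc kept its call (-0.62, FDR 0.000229) and Nr4a1, at -0.42, did not (FDR 0.101). In bulk tissue, fewer cells of a type and less RNA per cell cannot be told apart.

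The ERK cascade transmits synaptic signals to many of these genes, and its feedback inhibitors are themselves induced by activity. None of 19 kinase and inhibitor genes passed the FDR, and 2 were lower at the unadjusted limit, with a list median of -0.03. Dusp1, which encodes the phosphatase MKP-1, stood at 25.4, 18.1 and 21.2 CPM in WT against 12.7, 12.9 and 17.3 CPM in Tob-KO, without overlap (log2 fold change -0.59 ± 0.16, unadjusted exact p = 0.00164, FDR 0.59). Dusp6, a phosphatase specific for ERK, was at 50.5, 52.6 and 47.8 against 44.5, 45.7 and 43.2 CPM (-0.17 ± 0.06, unadjusted exact p = 0.0455). The kinase gene Map2k1, among those with the most reads, differed by 0.02 ± 0.07.

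Of the 7 calls, the 3 with the largest fold changes lay on chromosome 11, where Tob1 lies. A830036E02Rik (99416956 to 99425497, forward strand) read 23.9, 16.7 and 27.0 CPM in WT against 0.131, 0.157 and 0.295 CPM in Tob-KO. It was close to absent from Tob-KO, with 4 to 10 counts per library against 519 to 855 in WT. Its log2 fold change was -6.81 ± 0.30 with an FDR of 1.37e-82, and it kept its call in the 16 other settings tried. Krt12 (99415666 to 99422259, reverse strand) overlaps it on the opposite strand.

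Krt12 was at 2.97, 0.966 and 2.42 CPM in WT against 0.0982, 0.157 and 0.383 CPM in Tob-KO, a log2 fold change of -3.27 ± 0.56 with an FDR of 0.000265. It was not called in the quasi-likelihood test (0.80) or without the choroid-poor libraries (0.101), and did not reach the stricter filter of 1 CPM in 3 libraries. The library kit was directional but the strand setting of the counting is not given, so reads of Krt12 and A830036E02Rik may not be separate. Gm11940 (99387340 to 99387897, forward strand), also annotated as antisense, was at 0.364, 0.483 and 0.664 CPM in WT against 2.0, 2.01 and 2.5 CPM in Tob-KO (log2 fold change 2.12 ± 0.26, FDR 5.56e-08).

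Genes around Tob1 passed the unadjusted limit more often than those elsewhere, as a description without a test and among genes with a matched position. Within 10 Mb of Tob1, leaving out Tob1, 38 of 319 genes tested (11.9%) had an unadjusted p of at most 0.05 and 3 were called. On the rest of chromosome 11 it was 30 of 1057 (2.84%) with no call at an FDR of 0.05, and on the other chromosomes 646 of 16208 (3.99%) with 3 calls. The 38 divided into 18 lower and 20 higher genes, and 33 of them lay after Tob1 on the chromosome, among 246 tested there.

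Most of the nearest neighbours of Tob1 did not pass the unadjusted limit. Of the 5 genes on each side of Tob1, within 0.33 Mb, 8 had an unadjusted p above 0.05. Spag9, a scaffold for JNK kinases, was at 437, 456 and 458 CPM in WT against 386, 367 and 400 CPM in Tob-KO (log2 fold change -0.22 ± 0.05, FDR 0.824), and Nme2, a nucleoside diphosphate kinase gene, was below 1 CPM in every library with a log2 difference of 0.96 ± 0.31. Mbtd1, Nme1, B230206L02Rik, Wfikkn2, Luc7l3, Ankrd40, Abcc3 and Cacna1g were at 0.05, -0.17, -0.27, 0.63, 0.08, -0.01, 0.31 and -0.08 on the log2 scale. The next gene beyond Mbtd1, Utp18, needed for making ribosomes, was at 20.1, 19.6 and 18.8 CPM in WT against 26.7, 27.0 and 25.1 CPM in Tob-KO (0.43 ± 0.07, FDR 0.0899). Utp18 was named after its values were seen.

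**Figure D4:**
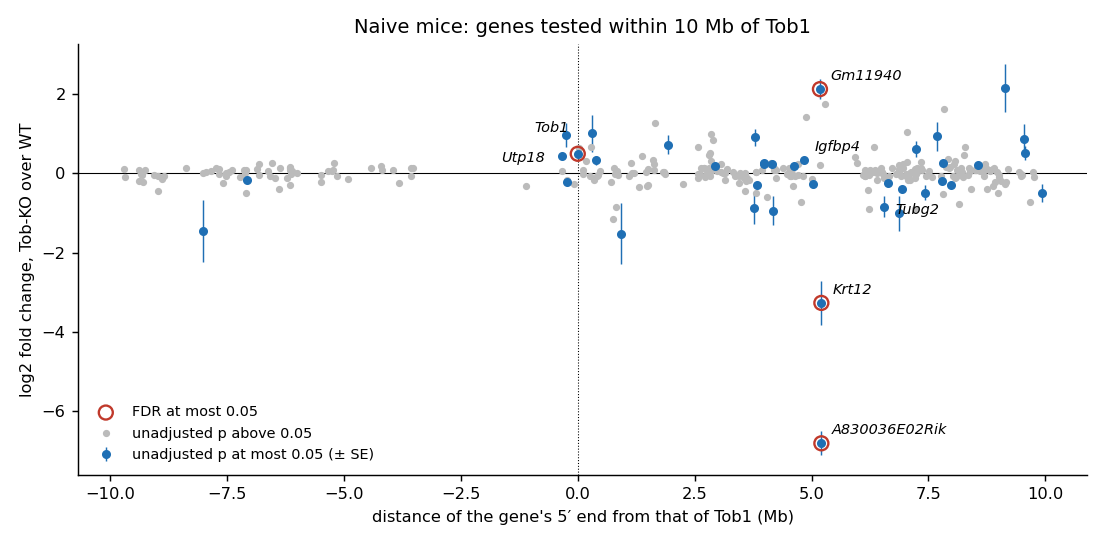
Log2 fold change of Tob-KO over WT in naive mice against the distance of each gene's 5′ end from that of Tob1 (Mb), for the genes tested within 10 Mb. Blue points with SE bars are the 39 genes, Tob1 included, at an unadjusted p of at most 0.05, red circles the 4 at an FDR of at most 0.05, and 3 of these, Gm11940, Krt12 and A830036E02Rik, lie close together near 5 Mb.

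Hectd2 was the 1 call above 2-fold outside chromosome 11. The gene lies on chromosome 19 (36554639 to 36621135, forward strand). It stood at 16.1, 20.7 and 34.2 CPM in WT against 60.9, 60.9 and 55.3 CPM in Tob-KO. The Tob-KO libraries were alike while WT libraries varied 2-fold. The log2 fold change was 1.32 ± 0.24 with an FDR of 0.000391 in the exact test, and the adjusted p was 0.0888 in DESeq2, 0.80 in the quasi-likelihood test and 0.0673 without WT replicate 2.

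Between an FDR of 0.05 and 0.1 lay 4 genes, Fos, Utp18, Gm15247 and 2900052N01Rik. Gm15247 on the X chromosome read 0.196, 0.354 and 0.498 CPM in WT against 2.32, 2.83 and 0.736 CPM in Tob-KO (FDR 0.0672). The noncoding gene 2900052N01Rik, on chromosome 9 and named after its values were seen, was at 46.7, 38.4 and 46.5 CPM in WT against 30, 29 and 34.4 CPM in Tob-KO, a log2 fold change of -0.49 ± 0.10 (FDR 0.0899).

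Stress hormone genes were compared because the hippocampus is rich in corticosteroid receptors and takes part in ending the stress response. None of 14 receptor and binding protein genes passed the FDR, and their median log2 fold change was -0.05. Crhr1, a receptor for corticotropin-releasing hormone, was lower at the unadjusted limit, at 14.6, 11 and 15.5 CPM in WT against 9.07, 7.01 and 12.8 CPM in Tob-KO with overlap (-0.50 ± 0.22). It lies 9.92 Mb from Tob1. The corticosteroid receptor genes Nr3c1 and Nr3c2 were at -0.09 ± 0.06 and 0.28 ± 0.14, and Mc3r, Crhr2, Avpr1a and Esr1 at 0.64 ± 0.53, 0.43 ± 0.31, -0.24 ± 0.54 and -0.05 ± 0.18, all with overlapping groups.

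Among 19 glucocorticoid-responsive genes, with a median of 0.12, none passed the FDR, 2 were lower and 1 was higher at the unadjusted limit. The higher one was Fkbp5, a brake on the glucocorticoid receptor, at 74.7, 75.6 and 68.8 CPM in WT against 83.3, 92.2 and 88.7 CPM in Tob-KO (0.27 ± 0.06, unadjusted exact p = 0.00109, FDR 0.487). The lower ones were Dusp1 and Lcn2. Zbtb16 and Sgk1, those with the most reads, were at 0.12 ± 0.06 and 0.37 ± 0.26.

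Lcn2, an iron-binding protein gene that is induced by stress and inflammation, was near the detection limit. Its level was 0.923, 0.419 and 0.697 CPM in WT against 0.0655, 0.283 and 0.442 CPM in Tob-KO, so that the groups overlapped. The log2 fold change was -1.34 ± 0.56 (unadjusted exact p = 0.0238, FDR 1). None of the 8 inflammatory genes tested passed the FDR, and 3 others were higher at the unadjusted limit. C3, the central complement gene, was at 0.867, 1.68 and 0.897 CPM in WT against 2.42, 3.46 and 2.36 CPM in Tob-KO (1.26 ± 0.30, FDR 0.207). Il1r1, the interleukin-1 receptor gene, was at 11.4, 14.6 and 13.5 against 16, 22.9 and 17.6 CPM (0.52 ± 0.15), and Serpina3n, a protease inhibitor gene of reactive glia, at 0.34 ± 0.16. All 3 were highest in Tob-KO replicate 2, the library richest in choroid plexus markers. They were lowest in WT replicate 1, the WT library richest in those markers. In Tob-KO replicate 1, which is choroid-poor, all 3 lay above every WT library. The part of that tissue was not tested. Cxcl10 and Icam1 were at 0.05 and 0.06 on the log2 scale, Nfkbia was at 0.17 ± 0.13, and Il1b, Il6, Tnf, Ccl2, Ccl3 and Ccl4 were below the filter.

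Receptor genes of excitatory and inhibitory synapses showed no call at an FDR of 0.05. Of 23 glutamate receptor and auxiliary subunit genes, with a median of 0.06, 2 were lower and 2 were higher at the unadjusted limit, and all 4 encode auxiliary subunits of AMPA receptors. Cacng2 was at 99.4, 85.7 and 93.9 CPM in WT against 82.6, 79.4 and 84.3 CPM in Tob-KO (-0.18 ± 0.06), and Cacng3 at 73.7, 56.1 and 72.8 against 52.7, 43.3 and 61.9 CPM (-0.36 ± 0.15). Shisa6 was at 141, 202 and 170 against 235, 264 and 186 CPM (0.42 ± 0.16), and Cacng8 at 101, 135 and 118 against 152, 155 and 120 CPM (0.27 ± 0.13). Only Cacng2 had no overlap. Gria1 and Camk2a, an AMPA receptor subunit and a postsynaptic kinase gene with the most reads here, were at 0.24 ± 0.13 and 0.16 ± 0.11. None of 22 genes of GABA receptors, GABA synthesis and the inhibitory synapse had an unadjusted p of at most 0.05, and Gabbr1 was at 0.02 ± 0.07.

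The pathways that TOB is known to enter showed small differences. Of 20 deadenylation genes, with a median of 0.03, Cnot4, a ubiquitin ligase linked to CCR4-NOT, was at 29.6, 33.3 and 32.9 CPM in WT against 34.7, 37.4 and 37.9 CPM in Tob-KO (0.20 ± 0.07, unadjusted exact p = 0.0405), and none passed the FDR. Pabpc1, the poly(A)-binding protein gene, and Cpeb4 were at 0.09 ± 0.06 and 0.03 ± 0.05. Of 18 BMP and SMAD genes, with a median of 0.05, the inhibitory SMAD gene Smad7 was higher at the unadjusted limit, from 24.8, 26.4 and 25 CPM to 30.2, 29.8 and 28.7 CPM (0.22 ± 0.06). The BMP target Id2 was lower, from 63.1, 53.3 and 56.1 CPM to 46.3, 42.9 and 48.6 CPM (-0.32 ± 0.08, unadjusted exact p = 0.00147, FDR 0.562). The receptor genes Bmpr2 and Bmpr1a were at -0.03 ± 0.05 and 0.05 ± 0.06.

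Stress protein and clock genes held 1 difference at the unadjusted limit. Of 12 cytosolic heat shock genes, with a median of 0.09, Hspa1b was higher at the unadjusted limit, at 8.14, 10.7 and 10.7 CPM in WT against 10.8, 14.9 and 14.1 CPM in Tob-KO (0.44 ± 0.16), while Hspa8 and Hsp90ab1 were at 0.06 ± 0.07 and 0.10 ± 0.06. None of 15 endoplasmic reticulum chaperone genes and none of 16 clock genes had an unadjusted p of at most 0.05, with Hspa5, Calr, Tef and Hlf at 0.18 ± 0.14, 0.06 ± 0.10, -0.10 ± 0.06 and -0.24 ± 0.12.

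Cell type markers were compared to see which tissues the libraries held. Of 15 hippocampal principal neuron markers, with a median of 0.19, none passed the FDR and 5 (33.3%, against 2.20% of all genes) were higher in Tob-KO at the unadjusted limit. The dentate granule cell genes Prox1 (83.2, 126 and 110 against 137, 150 and 117 CPM), Dsp (43.3, 79.1 and 65.2 against 88.3, 122 and 79.8 CPM) and C1ql2 differed by 0.34 ± 0.15, 0.63 ± 0.23 and 0.37 ± 0.15. Fibcd1, of CA1, and Cpne4, of CA3, differed by 0.19 ± 0.08 and 0.26 ± 0.11. For these genes WT replicate 1 was the lowest library and, apart from Dsp, groups overlapped, while the general neuronal genes Rbfox3 and Snap25 were at 0.02 ± 0.05 and -0.11 ± 0.07. In the list 12 genes were positive and 3 negative, namely Snap25, Mpped1 (-0.25 ± 0.12) and Wfs1 (-0.11 ± 0.14).

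Glia and most other cell types held no gene at the unadjusted limit. None of 7 astrocyte, 9 oligodendrocyte, 8 microglia, 6 endothelium, 18 choroid plexus, 6 ependyma, 8 meningeal fibroblast, 8 striatum and septum, and 7 thalamus genes tested had an unadjusted p of at most 0.05. Among their genes with the most reads were Slc1a2 and Slc1a3 of astrocytes (0.00 and -0.03), Mbp of myelin (0.11), Csf1r of microglia (0.07) and Flt1 and Slco1a4 of endothelium (0.01 and -0.08). All 18 choroid plexus genes were positive with a median of 1.20, and Ttr read 2097, 580 and 16.9 CPM in WT against 35.8, 4211 and 1967 CPM in Tob-KO, a log2 difference of 1.21 ± 1.57 that was smaller than its standard error. Enpp2 of the same tissue was at 0.91 ± 0.90, Foxj1 and Rarres2 of ependyma at 0.58 ± 0.31 and 0.16 ± 0.25, Igf2 and Dcn of meninges at 0.60 ± 0.68 and -0.14 ± 0.40, Ppp1r1b and Zic1 of striatum and septum at 0.27 ± 0.29 and 0.20 ± 0.30, and Prkcd and Slc17a6 of thalamus at 0.43 ± 0.23 and -0.57 ± 0.31.

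Interneuron and blood lists held the remaining differences at the unadjusted limit. Of 10 interneuron genes tested, with a median of -0.02, 1 was lower. Pvalb, a marker of fast-spiking interneurons, was at 25, 26.4 and 22 CPM in WT against 22.3, 17.6 and 19.5 CPM in Tob-KO (-0.30 ± 0.11), while Gad1 and Gad2, which make GABA, were both at -0.02. Of 5 blood genes tested, with a median of -0.40, none passed the FDR and 2 were lower. The red cell genes Hbb-bs (32.0, 26.5 and 37.2 against 23.2, 23.4 and 22.6 CPM) and Hba-a1 differed by -0.46 ± 0.12 and -0.40 ± 0.16, and the summed blood markers were 50.1 to 72.7 CPM in WT against 44.3 to 48.8 CPM in Tob-KO, which did not overlap. Averaged over the 9 blood genes, log2 (CPM + 0.1) did overlap. It stood at 0.23, -0.03 and 0.20 from the mean of the 6 libraries in WT and at -0.24, 0.10 and -0.26 in Tob-KO. The summed blood level thus moved with the genotype beside the lower activity-regulated genes, and its part in the result was not tested. Genes of the Y chromosome, Ddx3y and Eif2s3y, were present in all 6 libraries (0.06 ± 0.09 and 0.22 ± 0.09).

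The mice after conditioning are separate animals, so they show whether the naive differences recurred. Over the 18 conditioned libraries with time as a factor, 20 of 19262 genes passed an FDR of 0.05 in the quasi-likelihood test (0.104%). Of the 7 naive calls, Tob1 (0.59 ± 0.04), Gm11940 (2.12 ± 0.18), Krt12 (-1.87 ± 0.27) and A830036E02Rik (-2.80 ± 0.47) passed there too, with adjusted p-values of 5.9e-08, 2e-06, 0.00471 and 0.0188. The log2 fold changes of Krt12 and A830036E02Rik had been larger in size in naive mice, at -3.27 and -6.81. Hectd2, Arc and Nr4a1 did not, at 0.44 ± 0.10, -0.38 ± 0.18 and -0.26 ± 0.15 with adjusted p-values of 0.148, 0.488 and 0.585. Read the other way, the 20 genes called after conditioning all had the same sign in naive mice, and 9 of them had an unadjusted exact p of at most 0.05. Utp18 (0.54 ± 0.03 after conditioning), Igfbp4, Tubg2, 2900052N01Rik and Gsn were among these 9, with Tob1, Gm11940, Krt12 and A830036E02Rik. Of the 20, 8 lay within 10 Mb of Tob1, and these held 7 of the 9. Of the other 12, 2 had an unadjusted exact p of at most 0.05.

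The 10 activity-regulated genes lower in naive mice kept a negative sign after conditioning, as a description of genes chosen for being low in naive mice. Their median log2 fold change was -0.50 in naive mice and -0.30 over the conditioned libraries, where 6 of them had an unadjusted p of at most 0.05 (against 4.78% of all genes lower and 5.13% higher at that limit) and none passed the FDR (smallest 0.338). In both genotypes Arc stood above its naive level at 15 min and at 1 h. WT libraries spanned 172 to 377 CPM at 15 min and 170 to 237 CPM at 1 h, and Tob-KO libraries 150 to 301 CPM and 192 to 243 CPM, with overlap at both times. At 3 h WT spanned 86.9 to 160 CPM and Tob-KO 54.7 to 70.5 CPM, again apart as in naive mice. Fos at 3 h was also apart, at 9.03 to 16 CPM in WT against 5.91 to 8.48 CPM in Tob-KO, and so was Npas4, at 8.42 to 12.5 CPM and 5.85 to 7.36 CPM. The share of all genes whose groups lay apart at 3 h was not counted, so these separations have no background to be read against.

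**Figure D5:**
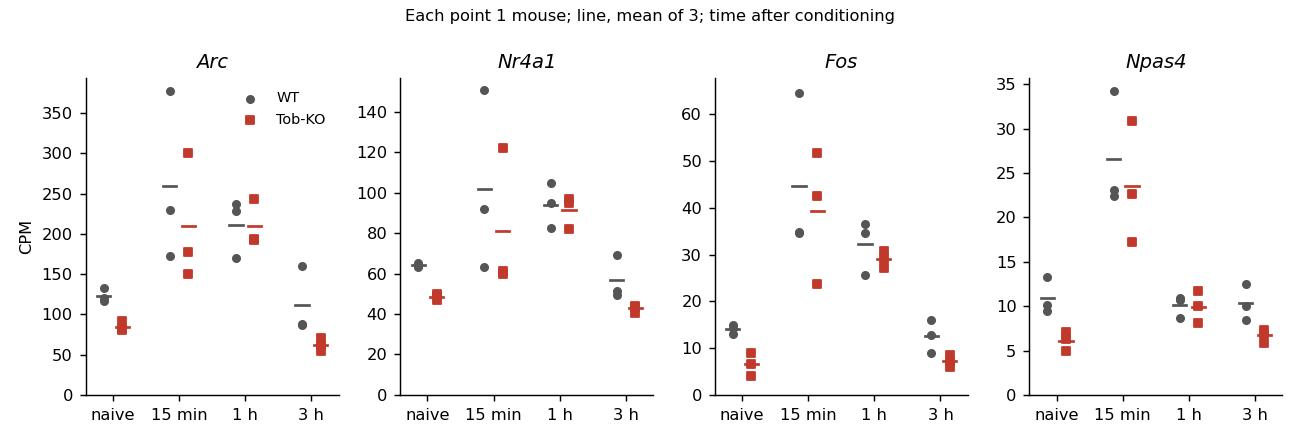
CPM of Arc, Nr4a1, Fos and Npas4 in each of the 24 libraries (points, 1 mouse each, WT grey and Tob-KO red) with the mean of 3 as a line, by time: naive, then 15 min, 1 h and 3 h from conditioning. In naive mice the genotypes are apart for every gene shown. At 3 h they are apart for Arc, Fos and Npas4, and for Arc they overlap at 15 min and 1 h.

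Whether the naive difference differed in size from that after conditioning was tested in 1 fit over the 24 libraries. None of 19500 genes passed an FDR of 0.05 in edgeR's quasi-likelihood test (0%), where 896 had an unadjusted p of at most 0.05 and the smallest FDR was 0.626. The naive minus the later log2 difference was -0.72 ± 0.34 for Fos and -0.57 ± 0.25 for Npas4, both with an FDR of 0.967. For Arc and Nr4a1 it was -0.16 ± 0.30 and -0.14 ± 0.28. A larger naive effect was therefore not shown for any of these genes.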

How the data were processed

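Poly(A) RNA of whole hippocampus was read as 150-bp paired ends from directional libraries. Per the submitters' processing notes the tools include STAR 2.6.1d and HTSeq 0.9.0 with the build GRCm38. The authors deposited raw counts of reads per gene, whole numbers without normalization, for 47593 gene names in 24 libraries. The strand setting, the annotation release and the handling of duplicates are not given in the sources used here. Reads were counted without molecular identifiers.

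Groups came from the sample titles. Following the study, the 6 naive libraries were compared with edgeR's exact test (edgeR 4.0.16, R 4.3.3) after TMM normalization, at 0.2 CPM in at least 2 libraries and a Benjamini-Hochberg FDR of at most 0.05, with and without a 2-fold limit. Standard errors come from the quasi-likelihood fit. Conditioned libraries and the contrast between naive and conditioned mice were fitted with the quasi-likelihood test. Levels are TMM CPM over 24 libraries, tables were made in Python 3.11.15, and the scripts were tested on simulated counts. Coordinates are from GENCODE M21 for 45126 names (94.8%) that matched exactly 1 gene, and 27 names were dates, as spreadsheets write some symbols. Overlapping and antisense genes are uncertain.

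The part of the series, its gene lists and the lower direction of the activity-regulated genes were chosen with earlier results of these data known. The text names the Tob and Btg family, every gene called, members of each list at an unadjusted p of at most 0.05 (8 at most) and the 2 with the most reads, genes the study names, and 5 neighbours of Tob1 on each side. Some genes that the rule names are not reported here. Genes outside this rule were chosen after their values were seen: Utp18, 2900052N01Rik, Igfbp4, Tubg2, Gsn, Mpped1, Wfs1, the activity and inflammatory list members named without passing a limit, and the genes of the last section. Alternatives were the quasi-likelihood test, DESeq2 1.42.0, other scalings and filters, the spread of all 24 libraries, a replicate block, a choroid plexus score and leaving out libraries.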

Additional observations from a re-analysis of the deposited data

How the results depend on the processing

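The 7 calls at any fold and 4 at 2-fold became 1 and 1 in the quasi-likelihood test, also with a choroid plexus score (1 and 1), and 12 and 5 in DESeq2. Without the choroid-poor libraries, WT replicate 3 and Tob-KO replicate 1, there were 17 and 12. Leaving out 1 naive library gave 7 to 103 calls at any fold and 4 to 53 at 2-fold, with 13 and 10 without WT replicate 3, 30 and 14 without Tob-KO replicate 1, and 103 and 53 without Tob-KO replicate 3. The cause was not tested. All 7 calls were among the 103. No called gene reversed its sign in the 16 settings, and calls were lost in 30 of 111 values. The 10 lower activity-regulated genes became 8 to 11 when 1 library was left out, and 8 to 14 over all settings. RLE size factors and library size alone kept 7 and 4 calls, and no scaling shifted the median of all log2 fold changes by over 0.1.

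Replicate numbers recur in every group, but same-numbered naive samples did not deviate together, with correlations of -0.421, 0.146 and 0.0838. A WT and a Tob-KO library cannot come from the same animal, and whether equal numbers mark a litter or a batch is not given in the sources used here. With the replicate block the quasi-likelihood test called 1 gene at any fold and 1 at 2-fold, as it did without the block, and 14 activity-regulated genes were lower at the unadjusted limit. After conditioning, the 20 calls became 10 with the replicate block and 9 to 27 when 1 library was left out, with 9 without WT 3 h replicate 1. The contrast of naive with conditioned mice gave 0 calls at an FDR of 0.05 in every setting tried. Genes near the filter of 0.2 CPM rest on few counts, about 6 in the smallest naive library, so their fold changes are imprecise.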

Other observations

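Of the genes outside the lists above with small unadjusted p-values, 3 are given here. They were chosen after their values were seen and none passed an FDR of 0.05 in the exact test. Col4a2, a basement membrane collagen gene, was at 53.2, 62.2 and 58.5 CPM in WT and 73.1, 70.9 and 72.5 CPM in Tob-KO (log2 difference 0.32 ± 0.06, FDR 0.23). Lamb1, a laminin gene, was at 37.4, 41.4 and 38.5 against 46.5, 68.0 and 53.7 CPM (0.52 ± 0.13, FDR 0.277), and Igfbp4, which binds insulin-like growth factors and lies 4.83 Mb from Tob1, at 73.5, 74.3 and 70.6 against 92.9, 100 and 81.9 CPM (0.34 ± 0.08, FDR 0.308). In each the groups did not overlap.

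Without Tob-KO replicate 3 there were 103 calls, and for 69 of them the level of that library lay within the range of the 3 WT libraries. This was so for Tob-KO replicate 1 in 8 of the 30 genes called without it. Genes called on leaving out a library are by construction those in which it departs from its group. Adjacent genes near the end of the X chromosome stood out. Gm15726 (GRCm38, X, 169979047 to 169985232) was at 0.448, 0.29 and 0.864 CPM in WT and 6.42, 5.34 and 0.795 CPM in Tob-KO. G530011O06Rik (169975043 to 169978917) was at 1.51, 1.58 and 2.89 against 12.1, 11 and 1.94 CPM. Mid1, the ubiquitin ligase gene that spans them, was at 6.15, 7.02 and 7.37 against 14.3, 12.0 and 6.66 CPM. Tob-KO replicates 1 and 2 were thus above all other naive libraries for these 3 genes, and after conditioning the genotype difference was 0.05, -0.09 and 0.16 on the log2 scale.

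Lower levels in Tob-KO replicates 1 and 2 than in the other 4 libraries were seen for Necab1 (165, 100 and 166 against 73.6, 60.7 and 155 CPM), Lgi2 (119, 100 and 122 against 75.4, 54.3 and 121 CPM), Cplx3 (16.6, 9.41 and 15.0 against 5.66, 3.36 and 14.7 CPM) and Cbln4 (31.7, 15.2 and 32.3 against 8.94, 7.79 and 35.8 CPM), with Nr4a2 and Pcsk1 described above. Prg4 (6.41, 2.29 and 5.61 against 0.196, 0.471 and 6.42 CPM) and the transporter gene Slc47a1 (3.83, 1.68 and 5.75 against 0.327, 0.283 and 4.77 CPM) shared the pattern. These genes were chosen after their values were seen, none passed an FDR of 0.05 in the fit of all 6 libraries, and the cause was not tested.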
